A study of Homo sapiens with 6 samples.

Results

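Transcripts of prostaglandin synthesis and turnover were examined in H1975, a human lung adenocarcinoma (NSCLC) line that carries mutant EGFR and is labelled wild type for genotype. The genes were fixed by name: PLA2G4A, the cyclooxygenases PTGS1 and PTGS2, the prostaglandin E2 (PGE2) synthases PTGES, PTGES2 and PTGES3, the PGE2 receptors PTGER2 and PTGER4, and the inactivating enzymes HPGD and PTGR1. All 10 were found among the 27216 rows of the deposited expression table. The set was put together because PTGS2 was strongly lower in treated cells, so the comparison of treated with untreated cells had already been used to choose it. For the 10 genes that comparison is therefore given as values with their spread and no p-value.

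The study compared parental cells (Osi for 0 h, n = 3) with adapted cells (Osi at 1000 nM for 72 h, n = 3), where Osi is Osimertinib, an EGFR tyrosine kinase inhibitor. The parental columns of the table are named for DMSO, and whether those cells were held in vehicle, and for how long, is not stated. Dying cells were rinsed off before RNA was taken, so the adapted samples are cells that remained attached, of a single line, and nothing states that the 3 samples of a group came from separate cultures. The labels also describe digestion with RNase R, which removes linear RNA, ahead of a circular RNA library, whereas the study's methods name total RNA, and which of these libraries the table comes from could not be settled from the sources used here. If linear RNA was digested, the levels below are of what remained. Levels are log2(FPKM + 1), where FPKM counts fragments per kilobase of transcript, scaled to the size of the library. The depth of the libraries is unknown, and their linear values summed to between 375342 and 387753. Adapted replicate 1 stood apart from the other adapted samples (r = 0.991 with each, against 0.996 between replicates 2 and 3, across genes). Its r with the parental samples was 0.973, against 0.963 to 0.964 for the other adapted samples, and it is given by itself where it decides a value.

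Prostaglandins are made from arachidonic acid, which cytosolic phospholipase A2 cuts from membrane lipids. A cyclooxygenase turns it into prostaglandin H2, and terminal synthases convert that into PGE2 and the other prostanoids. PTGS2 is classically the inducible cyclooxygenase and PTGS1 the constitutive one, and HPGD ends the signal by oxidizing PGE2. In lung adenocarcinoma PTGS2 and PGE2 are known for promoting growth and for restraining immune cells. PTGS2 mRNA is also read as a marker of ferroptosis, which is how the study used it. By qRT-PCR in H1975 and another line, the study reported no difference in PTGS2 mRNA after Osi, unlike the sequencing values below.

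Both cyclooxygenase transcripts were abundant in parental cells and low in adapted cells. PTGS2 (ENSG00000073756, chr1:186671791-186680427, minus strand, GENCODE v29 on GRCh38) stood at 5.77, 5.78 and 5.70 on the log2 scale in the parental samples and at 2.42, 1.71 and 1.57 in the adapted samples. The groups did not overlap, and the highest adapted value, that of replicate 1, was well under the lowest parental one. The difference was -3.85 (95% interval -4.33 to -3.38, standard error 0.20 from limma). On the linear scale the mean FPKM went from 52.9 ± 1.51 to 2.86 ± 1.29 (n = 3 each, SD), a ratio of 18.5. Of the 12656 rows whose mean log2 level reached 1, 19 had a lower difference than PTGS2. Without adapted replicate 1 the PTGS2 difference was -4.11. In bulk RNA, fewer cells that express a gene and less of its RNA in each cell cannot be told apart.

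PTGS1 (ENSG00000095303, chr9:122370530-122395703, plus strand) followed the same course although it is the isoform regarded as constitutive. Its levels were 4.98, 5.04 and 4.92 in parental cells and 1.27, 0.51 and 0.53 in adapted cells on the log2 scale. Again no sample of one group reached the other, and adapted replicate 1 was the highest of its group. The difference was -4.21 (95% interval -4.68 to -3.75), and the mean FPKM went from 30.6 ± 1.29 to 0.76 ± 0.57 (n = 3 each, SD), a ratio of 40.3. PTGS1 passed the filter on low values only through the parental samples, since its adapted mean was 0.77 on the log2 scale. Only 12 of the tested rows had a lower difference. With both transcripts added together, FPKM was 84.2, 85.7 and 80.4 in the parental samples and 5.76, 2.69 and 2.42 in the adapted ones. PTGS2 exceeded PTGS1 in every sample, by a FPKM ratio of 1.69 to 1.75 in parental cells and 3.06 to 5.41 in adapted cells.

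The 5 transcripts most like PTGS2 were found by the distance between their 6 log2 levels, each centred on the parental mean. Of 11706 named genes they were, in order, AZGP1 (distance 0.41), NDRG1 (0.54), EGR1 (0.58), DUSP5 (0.60) and PTGS1 (0.64). EGR1 is an immediate early transcription factor and DUSP5 a phosphatase of ERK. EGR1 passed the filter on low values only through the parental samples, since its adapted mean was 0.26. The likeness is over 6 samples that fall into only the 2 groups compared, so it describes the size of the difference and the place of adapted replicate 1 and carries no test.

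The promoters of PTGS2, PTGS1 and PLA2G4A are shown because these 3 genes had the largest differences of the set. Each is the 250 bases before the transcription start of RefSeq (GRCh38.p14), read toward the gene. The windows are chr1:186680424-186680673 on the minus strand for PTGS2, chr9:122370283-122370532 on the plus strand for PTGS1 and chr1:186828699-186828948 on the plus strand for PLA2G4A. Capitals mark matches, on either strand, to the letters searched: CGTCA (the core of the cAMP response element, CRE), GGGA and CC with 4 bases between (NF-kB), TTNNGNAAT (C/EBP), TGA and TCA with 1 base between (AP-1), CACGTG (E-box), TATAAA (the TATA box), GGGCGG (the GC box) and CCAAT.
PTGS2: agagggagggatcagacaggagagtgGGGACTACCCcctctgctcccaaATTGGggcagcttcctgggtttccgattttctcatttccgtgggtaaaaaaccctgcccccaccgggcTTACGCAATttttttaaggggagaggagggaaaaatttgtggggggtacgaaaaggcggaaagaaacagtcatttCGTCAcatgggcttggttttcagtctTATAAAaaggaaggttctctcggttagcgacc
PTGS1: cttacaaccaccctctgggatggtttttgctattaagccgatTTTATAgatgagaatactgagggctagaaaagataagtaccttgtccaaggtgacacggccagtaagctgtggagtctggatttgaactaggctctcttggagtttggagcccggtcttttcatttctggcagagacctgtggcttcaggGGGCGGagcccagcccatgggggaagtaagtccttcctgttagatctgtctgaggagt
PLA2G4A: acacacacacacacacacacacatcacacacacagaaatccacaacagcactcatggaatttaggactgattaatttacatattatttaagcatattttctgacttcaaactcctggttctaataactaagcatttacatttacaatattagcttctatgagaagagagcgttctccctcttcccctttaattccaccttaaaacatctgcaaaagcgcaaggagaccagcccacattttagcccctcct

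Counted back from the start, the PTGS2 window held an NF-kB match at bases 224 to 215, a reverse CCAAT at 201 to 197, a C/EBP match at 133 to 125, a CRE core at 58 to 54 and TATAAA at 32 to 27. The PTGS1 window held a reverse TATAAA at bases 208 to 203, far from the start, and a GC box at 58 to 53. The PLA2G4A window, with a GC content of 38.8%, held none of these letters. Among 27305 RefSeq promoters of this length, 22.1% had the NF-kB letters, 10.0% the C/EBP letters, 21.7% the CRE core, 11.1% TATAAA, 33.0% CCAAT and 42.3% a GC box. In the 10 genes, 4 promoters matched NF-kB, 1 C/EBP, 3 the CRE core, 2 TATAAA, 3 CCAAT and 7 the GC box. None matched AP-1 or the E-box, whose letters were in only 6.6% and 6.5% of the 27305 promoters. NF-kB and GC box matches overlapped in the promoters of PTGER4 and PTGES3. These are letter matches and say nothing of which factor was bound.

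PLA2G4A encodes the cytosolic phospholipase A2 that supplies arachidonic acid to the cyclooxygenases. It lies beside PTGS2 on chromosome 1 (chr1:186828953-186988981, plus strand), with 149 kb and no protein-coding gene between them in GENCODE v29. Its log2 levels were 3.05, 3.01 and 2.84 in parental cells and 2.03, 1.87 and 1.83 in adapted cells. The groups were apart, and the spread within each was small against the gap. The difference was -1.06 (95% interval -1.27 to -0.84), and the mean FPKM went from 6.85 ± 0.59 to 2.77 ± 0.28 (n = 3 each, SD).

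The 3 transcripts annotated as PGE2 synthases were all expressed at high levels and differed little beside the cyclooxygenases. PTGES, the inducible microsomal synthase that is usually coupled to PTGS2, was at 6.21, 6.18 and 6.28 in parental cells and at 6.47, 6.01 and 5.85 in adapted cells on the log2 scale. The groups overlapped, with adapted replicate 1 above every parental sample and the other 2 adapted samples below them all. The difference was -0.11 (95% interval -0.46 to 0.23), and without adapted replicate 1 it was -0.29 (standard error 0.06). The ratio of PTGES to PTGS2 FPKM went from between 1.33 and 1.5 in parental samples to between 20.2 and 28.8 in adapted samples. That change comes from PTGS2, whose fall chose the set.

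PTGES2, a membrane-associated synthase, was at 5.76, 5.78 and 5.77 in parental cells and at 5.28, 5.02 and 5.04 in adapted cells. The groups were apart, by a difference of -0.66 (95% interval -0.85 to -0.47). PTGES3, a cytosolic synthase better known as p23, a co-chaperone of HSP90, had the highest level of the set in both groups. It stood at 7.21, 7.29 and 7.13 in parental and at 6.96, 6.76 and 6.51 in adapted cells on the log2 scale, a difference of -0.47 (95% interval -0.74 to -0.20). Here too the groups did not overlap, although the adapted samples were spread more widely.

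**Figure D1:**
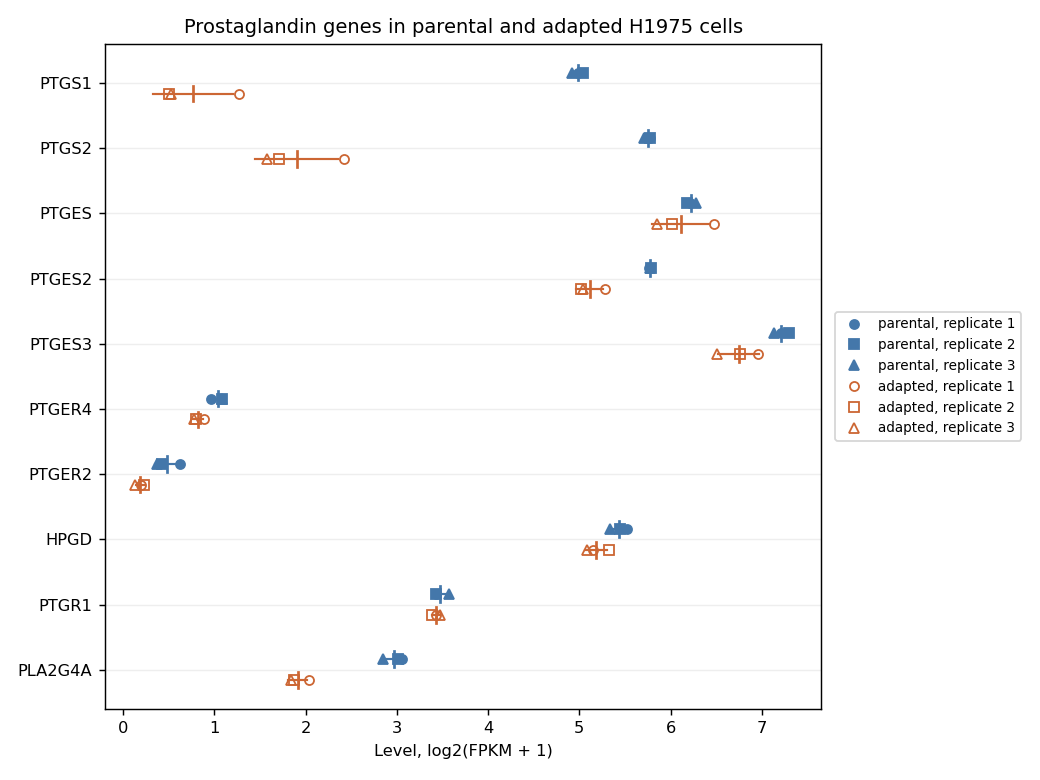
Level of each of the 10 prostaglandin transcripts in log2(FPKM + 1) on the horizontal axis. Filled blue symbols are the 3 parental and open orange symbols the 3 adapted samples, and lines give the mean and SD of each group. PTGS1 and PTGS2 lie between 4.92 and 5.78 in parental cells and between 0.51 and 2.42 in adapted cells, while PTGES and PTGR1 overlap between the groups.

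The enzymes that remove PGE2 stayed near their parental levels. HPGD, which oxidizes PGE2 to an inactive ketone, was at 5.53, 5.44 and 5.33 in parental cells and at 5.15, 5.32 and 5.09 in adapted cells. The highest adapted value was just under the lowest parental one, so the groups touched without overlapping. The difference was -0.25 (95% interval -0.44 to -0.05). PTGR1, which reduces the oxidized prostaglandin in the next step, was at 3.43, 3.43 and 3.57 in parental and at 3.43, 3.38 and 3.47 in adapted cells on the log2 scale, with overlap and a difference of -0.05 (95% interval -0.21 to 0.11). In parental samples the FPKM of HPGD was 0.77 to 0.84 times that of PTGS2, and in adapted samples 7.93 to 17.1 times. That change comes from PTGS2, whose fall chose the set, as the mean FPKM of HPGD itself went from 42.2 to 35.5.

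The PGE2 receptors were scarcely expressed in either group. PTGER4 (EP4) was at 0.96, 1.08 and 1.08 in parental and at 0.89, 0.80 and 0.78 in adapted cells on the log2 scale. PTGER2 (EP2), like EP4 coupled to cAMP, was at 0.62, 0.43 and 0.37 in parental and at 0.19, 0.23 and 0.13 in adapted cells. Neither overlapped between the groups, but no sample of either exceeded an FPKM of 1.12, and both were below the filter and were not tested. The other prostanoid receptors were also near 0. None of PTGER1, PTGER3, PTGDR, PTGDR2, PTGFR, PTGIR and TBXA2R passed the filter, and their FPKM summed to between 0.35 and 0.53 in parental and between 0.31 and 0.65 in adapted samples.

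In order of FPKM, which allows for transcript length, parental cells held PTGES3, PTGES, PTGES2, PTGS2, HPGD, PTGS1, PTGR1, PLA2G4A, PTGER4 and PTGER2. The means of PTGES2 (53.6 ± 0.43) and PTGS2 (52.9 ± 1.51, n = 3 each, SD) were within their spread of each other, and the remaining neighbours in that order were not. In adapted cells PTGS2 stood in place 6 (2.86 ± 1.29), level within its spread with PLA2G4A (2.77 ± 0.28), and PTGS1 (0.76 ± 0.57) stood in place 9, level with PTGER4 (0.77 ± 0.07). HPGD (35.5 ± 3.10) and PTGES2 (33.8 ± 3.67, n = 3 each, SD) were also within their spread.

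Of the 10 genes, 8 passed the filter of a mean log2 level of at least 1, and 6 of these 8 were past limma's threshold (Benjamini-Hochberg adjusted p under 0.05), all lower in adapted cells. Of all 12656 tested rows, 56.9% were past that threshold. As shares of all tested rows, 26.2% were lower and 30.7% higher in adapted cells. As PTGS2 chose the set on this contrast, nothing is read from the count. HPGD was past the threshold in 12 of 19 alternative fits, the fewest of the 6. All 10 differences were negative (that of PTGES turned to 0.02 without adapted replicate 3), with a median of -0.38, or -0.56 over the 8 tested, against 0.03 over all tested rows. Groups did not overlap in 8 of the 10 genes, and in 6 of the 8 tested, each lower in adapted cells. Of all tested rows 30.6% were lower without overlap and 66.3% lay apart in either direction. For the same reason nothing is read from these counts. Adapted replicate 1 was the highest of the adapted samples in 7 of the 10, and in 53.1% of the tested rows that were lower without overlap. All 10 genes were on the decimal grid of the table, that is, none carried the added constant found in 147 other rows.

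The other genes of arachidonic acid metabolism were taken as a list of 70, of which 32 passed the filter. Of the 32, 11 rose and 10 fell by the same rule, 65.6% of those tested beside 56.9% of all rows, with a median difference of 0.12. With 1 sample left out the total ran from 14 to 26 of 32, and those that fell from 6 to 11. It was 14 without parental replicate 1 or 3, where 5822 and 5855 of the 12656 rows were called. The 6 were found without parental replicate 1, 2 or 3 or adapted replicate 3. Counts by role below stand beside 30.7% higher and 26.2% lower of all tested rows. Of the genes named in what follows, FOS, IL1A, IL1RN, NR4A1 and NR4A2 passed the filter only through the parental samples and FAAH, CELF2 and HBEGF only through the adapted samples.

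Of 17 genes that release arachidonic acid by other routes 7 were tested, 5 rose and none fell. MGLL, which hydrolyses 2-arachidonoylglycerol, was 1 of the 5 and lost its call without parental replicate 1 or 3 (adjusted p = 0.0653 and 0.0783, limma). DAGLA, a lipase that makes the endocannabinoid 2-arachidonoylglycerol, rose from 1.88 ± 0.10 to 3.29 ± 0.21 on the log2 scale (n = 3 each, SD, adjusted p = 8.08e-05, limma). FAAH, which hydrolyses anandamide, rose by 0.77 (adjusted p = 0.0018, limma) and PLA2G16, an adipose phospholipase, by 0.74 (adjusted p = 5.44e-04, limma). The remaining cytosolic phospholipases related to PLA2G4A were below the filter. Among them PLA2G4E was at 1.0 ± 0.10 in parental and 0.04 ± 0.01 in adapted cells and PLA2G4D at 0.85 ± 0.05 and 0.01 ± 0.02, and both were lower in adapted cells without overlap. PLA2G4C was at 0.48 ± 0.09 and 1.39 ± 0.42, and the secreted PLA2G10 at 0.15 ± 0.13 and 1.30 ± 0.53 (n = 3 each, SD), both higher in adapted cells.

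Of 8 enzymes that put arachidonic acid back into lipids 6 were tested, 2 fell and 1, ACSL1, was called higher. ACSL4, the synthetase that prefers arachidonic acid and primes membranes for ferroptosis, fell from 7.60 ± 0.07 to 5.77 ± 0.34 (n = 3 each, SD, adjusted p = 8.74e-05, limma). ACSL5 fell by 0.66 on the log2 scale (adjusted p = 2.69e-04, limma). ACSL1 was at 3.40, 3.48 and 3.29 in parental and at 3.47, 4.52 and 4.40 in adapted cells (adjusted p = 0.0398, limma). Its groups overlapped, and the call was lost without any 1 sample other than adapted replicate 1 (0.0769 to 0.126) and without the filter (0.157).

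Synthases of the other prostanoids were few. Of 8 genes 4 were tested, 1 rose and 2 fell. PRXL2B, a prostaglandin F synthase, rose from 3.09 ± 0.04 to 3.89 ± 0.08 (n = 3 each, SD, adjusted p = 8.08e-05, limma). AKR1B1, an aldo-keto reductase with prostaglandin F synthase activity, was at 6.15, 6.12 and 6.18 in parental cells and at 6.07, 4.97 and 4.90 in adapted cells. It passed the threshold by a difference of -0.84 (adjusted p = 0.0387, limma), but adapted replicate 1 was next to the parental samples, and the call was lost without any 1 of the other 5 samples (adjusted p = 0.0859 to 0.128, limma). CBR1, a carbonyl reductase that acts on PGE2, differed by -0.26 (adjusted p = 0.0425, limma) and lost the call without any 1 sample other than adapted replicate 1 (0.0725 to 0.146). AKR1C3, another such reductase whose reads may be shared with AKR1C1 and AKR1C2, was at 3.40 ± 0.05 and 3.27 ± 0.68 (n = 3 each, SD). Its adapted values were 4.04, 3.02 and 2.76, and its difference was -0.13 (adjusted p = 0.727, limma). Without adapted replicate 1 the difference was -0.51 (adjusted p = 0.00178, limma). PTGDS, HPGDS, PTGIS and TBXAS1, the synthases of prostaglandin D2, prostacyclin and thromboxane, were below the filter, and HPGDS was listed at 0 in all 6 samples.

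Transport and further inactivation took in 4 genes, of which 1 rose and 2 fell. SLCO2A1, the transporter that takes prostaglandins up for inactivation, rose from 2.15 ± 0.07 to 3.18 ± 0.39 (n = 3 each, SD, adjusted p = 0.00236, limma). ABCC4, which exports PGE2, was at 3.91 ± 0.12 and 4.17 ± 0.27 (adjusted p = 0.15, limma). PTGR2 and ZADH2 (PTGR3), reductases related in function to PTGR1, differed by -0.44 and -0.34 (adjusted p = 0.0429 and 0.02, limma). PTGR2 lost its call without any 1 of the parental samples or without adapted replicate 3 (adjusted p = 0.054 to 0.111, limma), and ZADH2 lost it without any 1 sample other than adapted replicate 1 (0.0502 to 0.0663).

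In the leukotriene branch, which uses the same substrate, 9 of 19 genes were tested, 2 rose and 4 fell. Among those higher was ALOX12, a lipoxygenase of platelets and skin, with a difference of 0.24 (adjusted p = 0.0294, limma), whose call was lost in 7 alternatives, among them leaving out any 1 sample other than adapted replicate 1 (0.053 to 0.101). ALOX5, the lipoxygenase that begins leukotriene synthesis, fell from 5.40 ± 0.05 to 3.92 ± 0.04 (n = 3 each, SD, adjusted p = 3.59e-06, limma). GGT1, which trims leukotriene C4 among other glutathione conjugates, fell by 1.19 on the log2 scale (adjusted p = 0.0032, limma), and ALOXE3, an epidermal lipoxygenase, fell by 0.90 (adjusted p = 5.41e-04, limma). MGST3, a microsomal glutathione transferase, rose by 1.36 (adjusted p = 1.6e-05, limma), but its adapted values carry an added constant of 0.66, and with that subtracted the rise was 0.70 (adjusted p = 0.000284, limma). Of 7 genes of the cytochrome P450 branch 2 were tested, and CYP2J2, an epoxygenase, rose by 0.76 (adjusted p = 0.00138, limma).

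**Figure D2:**
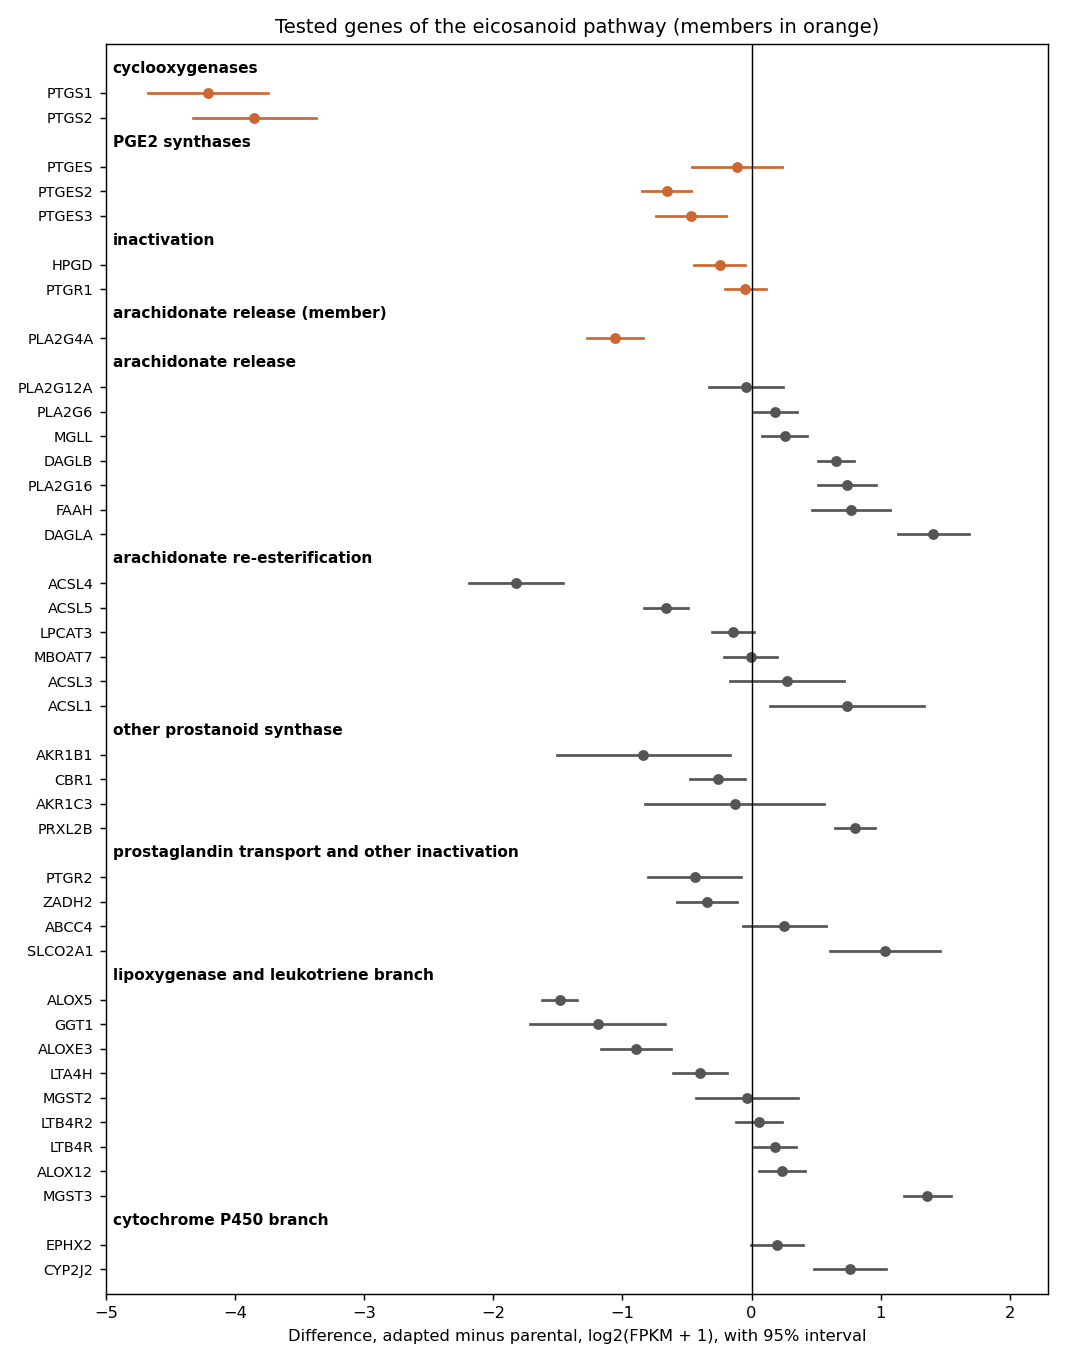
Difference between adapted and parental cells in log2(FPKM + 1) for the tested genes of the pathway, grouped by role, with 95% intervals from limma (3 samples a group). The chosen genes are orange and the other pathway genes grey. PTGS1 (-4.21) and PTGS2 (-3.85) lie far to the left of ACSL4 (-1.83), ALOX5 (-1.49) and PLA2G4A (-1.06), and DAGLA (1.41) and MGST3 (1.36) lie farthest to the right as deposited, MGST3 at 0.70 with its added constant subtracted.

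Signals upstream of PTGS2 were a list of 13 ligands and receptors, which also holds IL1RN, the antagonist that blocks interleukin-1. Of these 12 passed the filter, 1 rose and 8 fell, IL1RN among them, beside 30.7% higher and 26.2% lower of all rows. TNFRSF1A, another of the 8, lost its call without parental replicate 2 or 3 (adjusted p = 0.0571 and 0.0567, limma). IL1A and IL1B, the interleukin-1 cytokines, fell from 5.77 ± 0.06 to 0.95 ± 0.03 (adjusted p = 1.14e-07, limma) and from 5.72 ± 0.04 to 1.35 ± 0.20 (n = 3 each, SD, adjusted p = 5.52e-07, limma). Epiregulin (EREG), an EGFR ligand, fell by 2.96 on the log2 scale (adjusted p = 3.26e-05, limma). AREG and TGFA, also EGFR ligands, fell by 2.28 and 0.97 (adjusted p = 2.36e-06 and 0.0011, limma). HBEGF, another EGFR ligand, moved the other way and rose from 0.59 ± 0.22 to 3.47 ± 0.06 (n = 3 each, SD, adjusted p = 4.48e-06, limma). EGFR itself, the target of Osi, was at 9.06 ± 0.04 and 9.07 ± 0.02 (n = 3 each, SD, adjusted p = 0.976, limma).

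Regulators of PTGS2 transcription and mRNA decay were a list of 25, all tested, of which 4 rose and 12 fell, beside 56.9% called of all rows. JUN (0.32) and ATF2 (-0.19) were among the 16 and lost their calls without any 1 of the parental samples or without adapted replicate 2 (adjusted p = 0.0522 to 0.128, limma). The immediate early factors FOS and JUNB fell by 2.37 and 2.00 on the log2 scale (adjusted p = 1.99e-06 and 4.93e-06, limma). ZFP36, a protein that speeds the decay of AU-rich transcripts such as PTGS2, fell by 1.97 (adjusted p = 1.09e-05, limma). For the factors whose motif letters appear in the PTGS2 window, CEBPD and CEBPB fell by 1.77 and 1.64 on the log2 scale (adjusted p = 1.66e-05 and 1.07e-05, limma). CREB1 fell by 0.50 (adjusted p = 0.0044, limma). NFKB1 and NFKB2 fell by 0.42 and 0.35 (adjusted p = 0.00225 and 0.00315, limma). RELA was at 5.18 ± 0.02 and 5.24 ± 0.09 (n = 3 each, SD, adjusted p = 0.452, limma). RELB was at 3.28 ± 0.12 and 3.32 ± 0.06 (n = 3 each, SD, adjusted p = 0.701, limma). Among those that rose were CELF2 by 0.65 and RBM3 and TIA1 by 0.47 and 0.46 (adjusted p = 0.00126, 5.54e-04 and 0.00136, limma), RNA-binding proteins that act on AU-rich transcripts.

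**Figure D3:**
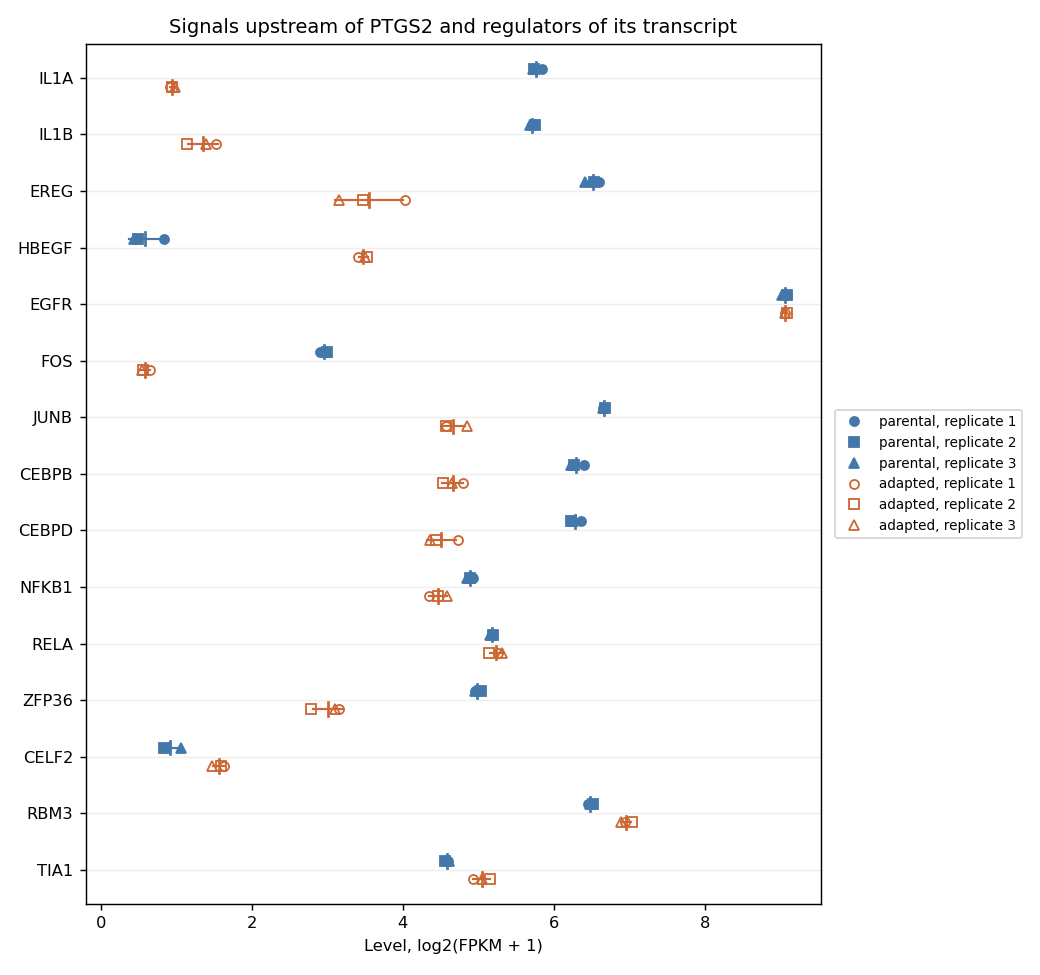
Level in log2(FPKM + 1) of 15 signals upstream of PTGS2 and regulators of its transcript, with the 3 parental samples in filled blue, the 3 adapted samples in open orange and lines for the mean and SD of each group. IL1A and IL1B drop from means of 5.77 and 5.72 to 0.95 and 1.35, EGFR and RELA overlap between the groups, and HBEGF lies higher in adapted cells.

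As the study read PTGS2 as a marker of ferroptosis, a form of death by lipid peroxidation, 8 other transcripts used in that way were set beside it. Of these 2 rose and 2 fell, beside 56.9% called of all rows. SLC7A11, the cystine importer, fell by 0.92 and TRIB3, a stress-induced pseudokinase, by 0.75 on the log2 scale (adjusted p = 1.06e-04 and 1.26e-04, limma). HMOX1, heme oxygenase, rose from 2.55 ± 0.14 to 3.64 ± 0.12 (n = 3 each, SD, adjusted p = 1.09e-04, limma). GPX4, the peroxidase that detoxifies lipid peroxides, rose by 1.12 as deposited (adjusted p = 1.35e-05, limma), with the added constant of 0.66 in its adapted values, and by 0.46 with the constant subtracted (adjusted p = 5.92e-04, limma). The study measured GPX4 as protein rather than RNA and reported no difference. Its reading also rested on other assays. It reported no significant rise of reactive oxygen species, lipid peroxidation or malondialdehyde, and inhibitors of lipid peroxidation did not lower the death of adapted cells. CHAC1, often the earliest induced of these, was at 2.93 ± 0.04 and 3.12 ± 0.18 (n = 3 each, SD, adjusted p = 0.142, limma).

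The libraries were checked for markers of epithelium, lung and other cell types, which cannot tell H1975 from another lung epithelial line. The 6 epithelial markers were high in every sample (summed FPKM 3710 to 3742 in parental and 3491 to 3788 in adapted cells). Within them KRT7 was higher and KRT8, KRT18 and KRT19 were lower in adapted cells without overlap, while EPCAM and CDH1 overlapped. The lung factor NKX2-1 was higher in adapted cells (mean FPKM 31.1 and 43.9) and the lung marker NAPSA lower (102 and 59.0), both without overlap. The surfactant genes SFTPB and SFTPC were near 0. The 7 leukocyte markers summed to 1.47 to 1.61 FPKM in parental and 0.43 to 1.05 in adapted cells, almost all of it CD14 (means 0.70 and 0.16) and CSF1R (0.84 and 0.46), while TYROBP and AIF1 were at 0 in all samples. Of the mast cell list 4 of 5 genes were at 0 in all samples. The 6 fibroblast markers summed to 3.04 to 3.17 FPKM in parental and 8.60 to 9.33 in adapted cells, with COL1A1 making up most of it, and the 5 endothelial markers to 1.13 to 1.88 and 1.53 to 3.51, with PECAM1 lower (1.22 ± 0.21 and 0.09 ± 0.02) and CDH5 higher (0.21 ± 0.05 and 1.71 ± 0.47 on the log2 scale, n = 3 each, SD) in adapted cells. Their part in the results was not tested.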

How the data were processed

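RNA-sequencing values of 6 samples were used. The authors deposited 1 table of log2 values, taken from the values as log2(FPKM + 1), with 1 column per sample matched to the labels by group and replicate number. Per the labels, the submitters' processing notes list hg38, Bowtie2 (version 2.1.0), STAR and edgeR with no role, while the study's methods name DESeq2, which needs counts. The quantifier and annotation are not given in the sources used here.

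Rows with a mean of at least 1 over the 6 samples (12656 of 27216) were tested with limma 3.58.1 in R 4.3.3 (unpaired, eBayes with an intensity trend), adjusted by Benjamini-Hochberg and called under 0.05. The log2(FPKM + 1) scale makes the differences of low genes too small, and p-values measure only the spread between these samples. The script was tested on simulated data. In 147 rows the 3 values of 1 group carry an added constant on the log2 scale (0.66 or 0.65 in adapted, 0.2 in parental samples), found as the single step of 0.01 that returned them to a grid of 6 decimals in FPKM. The deposited values were used except where the text subtracts a constant.

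The 10 genes, the lists and the alternatives were chosen with earlier results of these data known. Named genes are the 10, in each list at most 3 called genes without overlap with the highest and 3 with the lowest differences, the 5 most like PTGS2, and genes of the receptor, synthase and transport lists by their values. CEBPB, CEBPD, CREB1, NFKB1, NFKB2, RELA, RELB, EGFR, AREG, TGFA, CHAC1, IL1RN, TNFRSF1A, MGLL, ACSL1, ALOX12, JUN, ATF2, NR4A2, RAPGEF3, PLA2G4C, PLA2G4D, PLA2G4E, PLA2G10 and the marker genes singled out were named after their values were seen. Of 9 antisense, read-through or pseudogene neighbours listed, 2 were in the table and neither passed the filter. Gene positions are from GENCODE v29 (GRCh38) and promoters from RefSeq (GRCh38.p14), which held all 10. Figures were drawn with Python 3.11.15 and matplotlib 3.10.9.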

Additional observations from a re-analysis of the deposited data

How the results depend on the processing

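Tried in turn were no filter, a pseudocount of 0.1, a mean of at least 3, quantile normalization, an equal sum with and without the mitochondrially encoded genes, median centring, eBayes without a trend or robust, the replicate block, leaving out each sample, and leaving out the NewGene_ rows or the rows with a constant, or subtracting the constants. The median of all rows moved by under 0.1 in each. The PTGS2 difference ran from -4.24 (pseudocount 0.1) to -3.69 and that of PTGS1 from -5.35 (pseudocount 0.1) to -4.08. PTGS1, PTGS2, PLA2G4A and PTGES2 were past the threshold in every alternative that tested them, and PTGES3 in 18 of 19, the exception being no filter. HPGD was in 12 of 19, losing it without parental replicate 1 or 2 or adapted replicate 1 or 3, without the filter and under both equal sums. PTGES was past it only without adapted replicate 1, and its difference was 0.02 without adapted replicate 3. PTGER2 and PTGER4 were past it without the filter. PTGS2 chose the set on this contrast, PTGS1 passed the filter only through its parental samples, and the fits reuse the same samples. These calls of the 10 genes therefore describe the fits and are no support for the differences. With a mean of at least 3, fewer rows entered the fit and 4532 of 7693 passed (2357 higher, 2175 lower) in place of 7202 (3889 and 3313), and of the other eicosanoid genes 13 of 20 were (6 higher, 7 lower). Those lower numbered 10, and 6 to 11 with 1 sample left out, with 6 without parental replicate 1, 2 or 3 or adapted replicate 3. No listed gene past the threshold changed sign in any alternative, while some with differences near 0, such as AKR1C3 (0.13 without adapted replicate 3), did. The replicate numbers did not pair the samples (r = -0.05, -0.03 and -0.02 between same-numbered deviations), and with the replicate block 6761 rows and the same 6 of 8 prostaglandin genes were past the threshold. Without counts, depth sets no stated limit, and low values such as the receptors are the least certain.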

Other observations

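Transcripts of the cAMP pathway through which the PGE2 receptors EP2 and EP4 signal were examined as a list of 17, of which 14 passed the filter, 3 rose and 5 fell past the threshold, beside 56.9% called of all tested rows. NR4A2 and RAPGEF3, of the 5, lost their calls without any 1 of the parental samples or without adapted replicate 2 (adjusted p = 0.0564 to 0.107, limma). ADCY9, an adenylyl cyclase, rose from 2.32 ± 0.03 to 3.79 ± 0.29 on the log2 scale (n = 3 each, SD, adjusted p = 1.32e-04, limma), and GNAS, the stimulatory G protein subunit, rose by 0.60 (adjusted p = 2.47e-04, limma). PRKACB, a catalytic subunit of protein kinase A, was higher by 0.22 (adjusted p = 0.0365, limma), a call that was lost without any 1 of the parental samples or adapted replicate 2 (0.0951 to 0.105) and with the replicate number as a block (0.0619). NR4A1, an orphan nuclear receptor induced by cAMP and by growth factors, fell by 1.26 on the log2 scale (adjusted p = 4.72e-04, limma), ADCY3 fell by 0.96 (adjusted p = 0.00112, limma) and PDE4D, which degrades cAMP, fell by 0.58 (adjusted p = 0.00121, limma).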
